A study of Mus musculus with 3 samples.

Results

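Smooth muscle contractile genes are described here in RNA sequencing of whole mouse lung. The 6 genes are Acta2, Actg2, Tagln, Cnn1, Myh11 and Des, chosen by symbol through the RefSeq transcript identifiers of the deposited table. All 6 had a row, and Myh11 had 2, which makes 7 of the 16383 rows (6 of 10761 named genes).

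Smooth muscle forms in the lung mesenchyme, where it wraps the growing airways and the larger vessels. Its cells shorten when smooth muscle myosin, whose heavy chain is the product of Myh11, pulls on filaments of the actins encoded by Acta2 and Actg2. Calponin (Cnn1) and transgelin (Tagln, also called SM22) bind those filaments, and desmin (Des) builds the intermediate filaments that tie the contractile units together. Transcription of these genes is known to depend on serum response factor, which binds CArG boxes in their promoters, together with its partner myocardin.

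There were 2 libraries labelled as double knockout of Lin28a and Lin28b (DKO 1 and DKO 2) and 1 library labelled WT, all from a mixed C57BL/6J background. In the knockout, tamoxifen induced recombination of the floxed exon 2 by NKX2.1creERT, a Cre that is active in the lung epithelium and so outside the smooth muscle. Age and sex are not in the labels, which also leave unsaid whether WT carried the Cre or floxed alleles or received tamoxifen. Whether each DKO library is a different animal is not given either, and p-values then measure only the spread between these libraries, which may be technical. Values are RPKM, that is reads scaled by transcript length and sequencing depth, so levels of different genes can be compared within a library.

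Several features of the libraries bear on every comparison with WT. The depth, estimated from the low values, was about 30700000 reads in DKO 1, 34200000 in DKO 2 and 48700000 in WT. Lin28b, of the deleted genes the one with a row, had 0.187 RPKM in DKO 1, 0.590 in DKO 2 and 0.449 in WT, so the library labelled DKO 2 was not below WT. A level over the whole transcript and the whole lung does not measure the deleted exon in the epithelium. Libraries are called here by their labels. The 4 Y-linked genes Ddx3y, Eif2s3y, Kdm5d and Uty summed to 22.3 RPKM in DKO 1 and 8.11 in DKO 2 and were all listed at 0 in WT, so sex and genotype cannot be told apart. Red cell, white cell and liver markers differed widely, with a summed level of 29072.6 RPKM in DKO 1, 103141.2 in DKO 2 and 20238.6 in WT over 20 genes. Most of each sum was the globin gene Hbb-y (25259.0, 91330.7 and 18353.9 RPKM in the same order). Other genes of the list had other orders. Tyrobp, of white cells, had 218.9, 52.3 and 24.9 RPKM, and Afp, of liver, 0.891, 69.96 and 1.95.

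Acta2, Des and Cnn1 lay above WT in both DKO libraries, Tagln lay below WT in both, and Actg2 lay on either side. None of these differences passed the test across all genes. The summed level of the 6 genes was 30.1 RPKM in DKO 1, 26.0 in DKO 2 and 26.3 in WT. In whole lung, a difference in the number of smooth muscle cells and one in RNA per cell cannot be told apart.

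**Figure D1:**
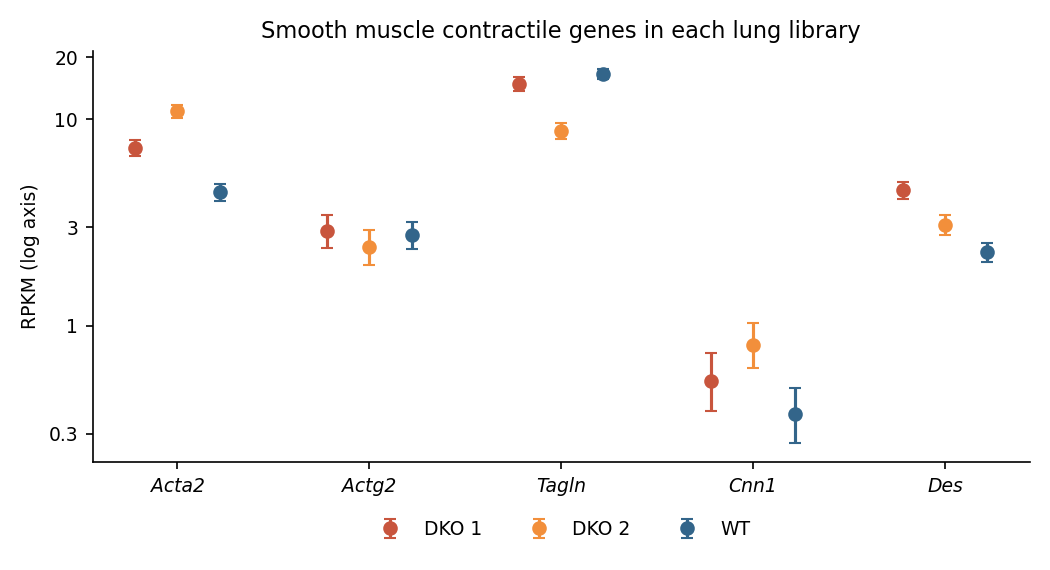
RPKM (log axis) of 5 smooth muscle contractile genes in DKO 1, DKO 2 and WT. Points are single libraries and bars are 95% exact Poisson intervals on approximate reads, which cover counting error only. Acta2 reached 10.97 RPKM in DKO 2 and 4.45 in WT, and Tagln 8.77 in DKO 2 and 16.5 in WT. Myh11, listed at or near 0, is left out.

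Acta2 encodes alpha smooth muscle actin, the most used marker of airway and vascular smooth muscle and of myofibroblasts (NM_007392, GRCm38.p6 chromosome 19, 34240336 to 34255585). It had 7.28 RPKM in DKO 1, 10.97 in DKO 2 and 4.45 in WT, or about 454, 763 and 441 reads. Both DKO libraries were above WT, and DKO 2 was the highest. The ratio to WT was 1.64 for DKO 1 (95% exact binomial interval 1.43 to 1.87) and 2.47 for DKO 2 (2.19 to 2.78). DKO 2 was in turn 1.51-fold above DKO 1 (1.34 to 1.70). These intervals, and all others on reads, cover counting error only and say nothing of the spread between animals. Tested on log2(RPKM + 1), the difference from WT was 0.87 (SE 0.67, 95% interval −0.58 to 2.32, limma adjusted p = 0.999). It stood at percentile 87.5 of the differences of all tested transcripts.

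Cnn1, calponin 1, inhibits the myosin ATPase on the thin filament and marks mature smooth muscle (NM_009922, chromosome 9, 22099221 to 22109221). It was a low gene, with 0.541 RPKM in DKO 1, 0.809 in DKO 2 and 0.372 in WT, about 40, 66 and 43 reads. The groups did not overlap. DKO 2 was 2.17-fold above WT (exact binomial interval 1.47 to 3.29), while for DKO 1 the ratio of 1.45 had an interval that spanned equality (0.936 to 2.33). With a mean of 0.574 RPKM, Cnn1 was below the level of 1 RPKM set for testing. In a fit without that level, its log2 difference was 0.28 (SE 0.34, limma adjusted p = 0.922), and that fit called 0 of 5245 transcripts (0%).

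Des encodes desmin, the intermediate filament protein of smooth, heart and skeletal muscle (NM_010043, chromosome 1, 75360292 to 75368579). It had 4.52 RPKM in DKO 1, 3.09 in DKO 2 and 2.265 in WT. Both DKO libraries were above WT, here with DKO 1 the highest. The ratio to WT was 2.00 for DKO 1 (exact binomial interval 1.72 to 2.31) and 1.36 for DKO 2 (1.17 to 1.60), and the log2 difference was 0.54 (SE 0.65, limma adjusted p = 0.999). The antisense gene Gm15179 overlaps 5.86% of the exonic bases of Des, and whether reads were assigned by strand is not given in the sources used here.

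RefSeq promoter sequences on GRCm38.p6 were at hand for 3 of the 6 genes, those that lay above WT in both DKO libraries. Each runs from 250 bases before to 50 bases after the start used for that sequence. For Acta2 and Cnn1 this start lies inside the gene span given above, and for Des it is the first base of the span. They are printed 5′ to 3′ to show the CArG boxes, the motif of serum response factor, which was searched by name on both strands with at most 1 mismatch and is given in capitals.
Acta2, chr19:34255324-34255623, minus strand: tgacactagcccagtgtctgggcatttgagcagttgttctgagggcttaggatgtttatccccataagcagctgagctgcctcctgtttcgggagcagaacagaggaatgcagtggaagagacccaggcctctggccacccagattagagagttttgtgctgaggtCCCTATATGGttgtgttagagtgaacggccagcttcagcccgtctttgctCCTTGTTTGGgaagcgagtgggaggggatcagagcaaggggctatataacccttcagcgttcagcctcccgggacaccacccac
Cnn1, chr9:22099003-22099302, plus strand: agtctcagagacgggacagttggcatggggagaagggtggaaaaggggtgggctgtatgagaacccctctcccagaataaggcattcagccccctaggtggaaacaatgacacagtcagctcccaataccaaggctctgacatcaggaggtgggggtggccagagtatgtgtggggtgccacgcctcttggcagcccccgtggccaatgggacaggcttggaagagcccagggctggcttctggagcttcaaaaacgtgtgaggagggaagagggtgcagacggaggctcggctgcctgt
Des, chr1:75360042-75360341, plus strand: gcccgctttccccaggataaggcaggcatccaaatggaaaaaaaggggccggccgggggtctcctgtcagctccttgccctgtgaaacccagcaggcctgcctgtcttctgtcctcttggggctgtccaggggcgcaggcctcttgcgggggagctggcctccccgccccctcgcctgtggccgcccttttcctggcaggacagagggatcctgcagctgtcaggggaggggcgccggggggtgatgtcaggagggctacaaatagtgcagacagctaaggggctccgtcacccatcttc

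The Acta2 promoter held 2 CArG boxes with 1 mismatch each, beginning at bases −84 and −34 from the start used for that sequence. Both boxes lie inside the gene span given above, so these positions need not be distances from the start of transcription. Of all 32851 promoters of the same length, 19.9% held at least 1 such box, while 1.63% held a box without mismatch, which none of the 3 did. The Cnn1 and Des windows had no match, which says only that these letters are not within these 300 bases. The letters TATAAA, the only form of a TATA box searched for (either strand), occurred in none of the 3 and in 13.6% of all promoters. Such letters can lie within a CArG box. Other forms of a TATA box were not searched, so these promoters may still hold one. The share of G and C was 54.7% for Acta2, 59.3% for Cnn1 and 65.3% for Des.

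Tagln encodes transgelin, an actin-binding protein that appears early in smooth muscle differentiation (NM_011526, chromosome 9, 45929628 to 45936058). It was the most abundant of the 6 genes in DKO 1 and in WT. Its level was 14.8 RPKM in DKO 1, 8.77 in DKO 2 and 16.5 in WT, about 726, 478 and 1282 reads. DKO 1 lay close to WT (ratio 0.899, exact binomial interval 0.820 to 0.985) and DKO 2 well below it (0.531, 0.477 to 0.590), so the difference came mostly from DKO 2. The log2 difference was −0.49 (SE 0.72, 95% interval −2.06 to 1.08, limma adjusted p = 0.999), at percentile 21.2 of all tested transcripts. Without DKO 2 it was −0.14, and without DKO 1 it was −0.84. The level of Tagln is uncertain, because exons of the antisense gene Gm48529 cover 62.4% of its exonic bases and those of Pcsk7 5.43%. Of its windows of 50 bases, 48.3% occur in transcripts of these genes. Both rows of Pcsk7 were listed at 0 in every library, and Gm48529 was not analysed here.

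Actg2, the gamma actin of visceral smooth muscle, differed least (NM_009610, chromosome 6, 83512909 to 83536251). It had 2.88 RPKM in DKO 1, 2.40 in DKO 2 and 2.75 in WT, and the groups overlapped. The ratio to WT was 1.05 for DKO 1 (exact binomial interval 0.827 to 1.34) and 0.873 for DKO 2 (0.681 to 1.11), so counting error alone spanned both. On the log2 scale the difference was −0.05 (SE 0.66, 95% interval −1.48 to 1.39, limma adjusted p = 0.999), an interval wide enough to hold a change of more than 2-fold either way. Actins are close paralogs, yet no window of 50 bases of Actg2 and 0.352% of those of Acta2 occur in a transcript of another gene, so reads of that length can tell them apart.

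Myh11, the myosin heavy chain that defines smooth muscle, gave no usable level (chromosome 16, 14194527 to 14292188). Its transcript NM_001161775 was listed at 0 in all 3 libraries. NM_013607 had 0.00492 RPKM in DKO 1, worth about 1 read, and was listed at 0 in DKO 2 and WT. Over the deposited values, 47.6% of rows of genes with 1 RefSeq transcript were listed at 0 throughout, against 69.4% for genes with 2, as Myh11 has, and 84.3% for genes with 3 or more. Gapdh, which nearly every cell uses, had 0.115 RPKM in DKO 1, 0.185 in DKO 2 and 0.0144 in WT, so a 0 can be a failed estimate. The other 5 genes have 1 RefSeq transcript each.

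Across all tested transcripts, limma with Benjamini-Hochberg adjustment called 2 of 2066 (0.0968%), and 0 of the 4 tested members, Acta2, Actg2, Tagln and Des, were among them. At an unadjusted p under 0.05 there were 0 of the 4 members and 66 of all transcripts (3.19%). Of the 4, 2 were above WT in both DKO libraries, where 32.1% of all tested transcripts were, and 1 was below in both, where 31.0% were. A rule of size with no p asked that both DKO libraries lie 2-fold or more to 1 side of WT and sit closer to one another than the nearer of them to WT. It took 4.70% of transcripts and 0 of the 4. The median log2 difference of the members was 0.25 (0.33 in DKO 1 and 0.09 in DKO 2) and that of all tested transcripts −0.01 (−0.01 in DKO 1 and 0.04 in DKO 2). These 2 sets of differences share the WT library.

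The spread between the DKO libraries sets the scale for these differences. The absolute log2 difference between DKO 1 and DKO 2 was 0.53 for Acta2, 0.43 for Des, 0.70 for Tagln and 0.19 for Actg2. Its median was 0.58 over all tested transcripts and 0.57 over the 796 at levels within those of the 4 genes. In the test, the spread of a gene came from the 2 DKO libraries, with 1 residual degree of freedom. It was drawn towards the trend over all tested transcripts, which counted for 11.2 prior degrees of freedom. The SE thus rested mostly on that trend, at 0.66 for Actg2 and 0.72 for Tagln. For the single WT library the same spread had to be taken. With 3 libraries an exact permutation test cannot go below a one-sided p of 0.333.

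**Figure D2:**
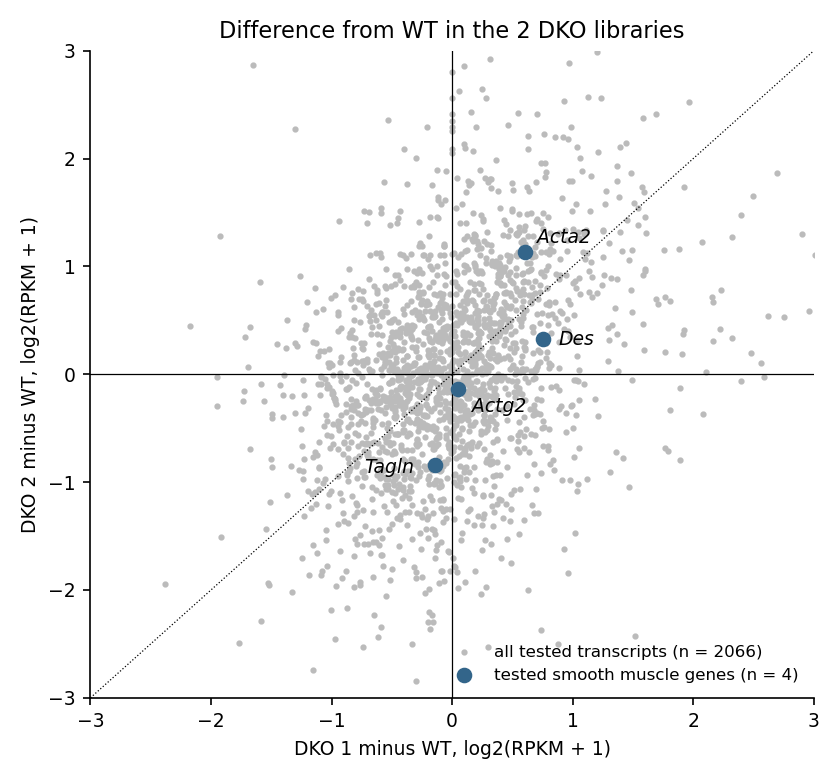
Difference from WT in log2(RPKM + 1), DKO 1 on the horizontal and DKO 2 on the vertical axis, for 2066 tested transcripts (grey) and 4 smooth muscle genes (blue), with 42 transcripts outside the plotted range. The dotted line marks equal differences. Acta2 and Des lie above and right of 0, Tagln below and left, Actg2 near 0, and all 4 lie within the cloud.

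The genes' shares of this sum also differed between the libraries. Tagln made up 49.4% of the summed RPKM of the 6 genes in DKO 1, 33.7% in DKO 2 and 62.7% in WT. Acta2 made up 24.2% in DKO 1, 42.1% in DKO 2 and 16.9% in WT. Des made up 15.0% in DKO 1, 11.9% in DKO 2 and 8.60% in WT. Acta2 thus stood at 0.490 of the level of Tagln in DKO 1 (exact binomial interval 0.435 to 0.552), 1.25 in DKO 2 (1.11 to 1.41) and 0.269 in WT (0.241 to 0.301). The intervals did not overlap, and they do not cover the uncertainty in Tagln from its overlapping neighbours.

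**Figure D3:**
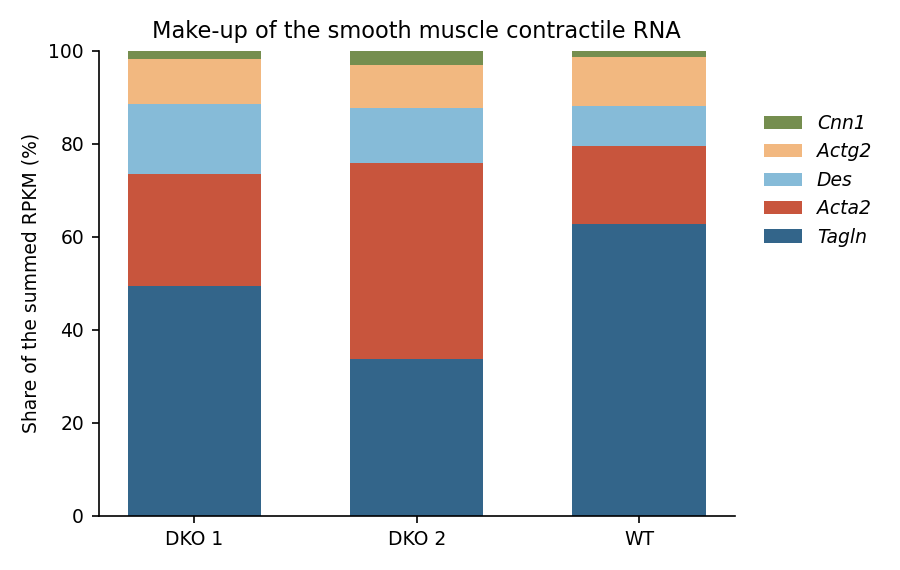
Share (%) of each gene in the summed RPKM of the smooth muscle contractile genes, by library. Bars start at 0 and add up to 100%. The share of Tagln was 33.7% in DKO 2 and 62.7% in WT, and that of Acta2 42.1% in DKO 2 and 16.9% in WT.

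Among the 10 ratios between the 5 measured genes, Acta2 over Tagln varied the most across the libraries, 4.64-fold between its extremes, and Acta2 over Cnn1 the least. The level of Acta2 was 13.4 times that of Cnn1 in DKO 1 (9.60 to 18.8), 13.55 times in DKO 2 (10.5 to 17.7) and 11.95 times in WT (8.76 to 16.8), with overlapping counting intervals. The order of levels differed as well. It was Tagln, Acta2, Des, Actg2 and Cnn1 in DKO 1, Acta2, Tagln, Des, Actg2 and Cnn1 in DKO 2, and Tagln, Acta2, Actg2, Des and Cnn1 in WT. Des and Actg2 were the closest pair in WT, with Actg2 over Des at 1.214 (1.004 to 1.456). In DKO 2 the closest neighbours were Acta2 and Tagln, at 1.25 (1.11 to 1.41), followed by Des over Actg2, at 1.29 (1.04 to 1.62). Over the DKO libraries, Acta2 averaged 9.12 ± 2.61 RPKM and Tagln 11.8 ± 4.29 RPKM (SD, n = 2), with the order of the 2 genes opposite in DKO 1 and DKO 2.

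Other genes of the contractile apparatus were examined in 5 lists. Of 62 genes with a row, 23 were tested, and limma called 0 of them, with adjusted p from 0.999 up and 1 gene, Hspb1, at an unadjusted p under 0.05. Both DKO libraries were above WT for 9 of the 23 (39.1%, against 32.1% of all tested transcripts) and below WT for 8 (34.8%, against 31.0%). Their median log2 difference was −0.08.

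Of the genes that control contraction through the myosin light chain, 6 were tested. Both DKO libraries were above WT for 0 of the 6 and below for 4, against 32.1% and 31.0% of all tested transcripts, with a median log2 difference of −0.40. Myl6, the essential light chain of smooth muscle and non-muscle myosin, had 2225.2 RPKM in DKO 1, 3975.7 in DKO 2 and 4435.6 in WT. Rock1, a kinase that holds back the myosin phosphatase, had 5.35 RPKM in DKO 1, 1.11 in DKO 2 and 6.81 in WT, so its difference came mostly from DKO 2. For Rock2, its paralog, the values were 1.39, 1.36 and 1.52 RPKM in the same order. This median was −0.23 without the filter on low values and −0.63 with rescaling to TPM, and the whole of the tested transcripts moved by −0.21 with TPM.

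Among actin-filament proteins, Cnn2, a calponin found also outside smooth muscle, had 23.2 RPKM in DKO 1, 33.9 in DKO 2 and 19.8 in WT. Its order over the libraries was that of Cnn1 and Acta2. Tpm4, a tropomyosin, had 59.98, 47.25 and 63.33 RPKM in DKO 1, DKO 2 and WT. Csrp1 and Csrp2, the remaining genes tested in this list of 4, lay on either side of WT. Of the non-muscle actins, Actb had 520.9 RPKM in DKO 1, 782.8 in DKO 2 and 489.5 in WT, and Actg1 378.1, 472.9 and 381.7 in the same order. Both were highest in DKO 2, as was Acta2, but by 0.68 and 0.31 on the log2 scale against 1.14 for Acta2.

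In the list of dense plaques, where filaments meet the membrane, 8 genes were tested, with 5 above WT in both DKO libraries and 2 below, against 32.1% and 31.0% of all tested transcripts. Hspb1, a small heat shock protein that binds actin filaments, had 2.82 RPKM in DKO 1, 9.39 in DKO 2 and 0.751 in WT (log2 difference 1.85, SE 0.74, limma adjusted p = 0.999). Tln1, talin, had 1.44, 1.46 and 0.737 RPKM in DKO 1, DKO 2 and WT, and Pdlim7 2.95, 7.76 and 2.68. Vim, the intermediate filament of mesenchymal cells in general, had 95.2 RPKM in DKO 1, 90.5 in DKO 2 and 102.5 in WT. Ednra, the endothelin receptor of smooth muscle, had 3.893, 4.735 and 3.8 RPKM in DKO 1, DKO 2 and WT. Rgs5, a G protein regulator of vascular smooth muscle and pericytes, had 2.22 RPKM in DKO 1, 5.01 in DKO 2 and 5.52 in WT.

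**Figure D4:**
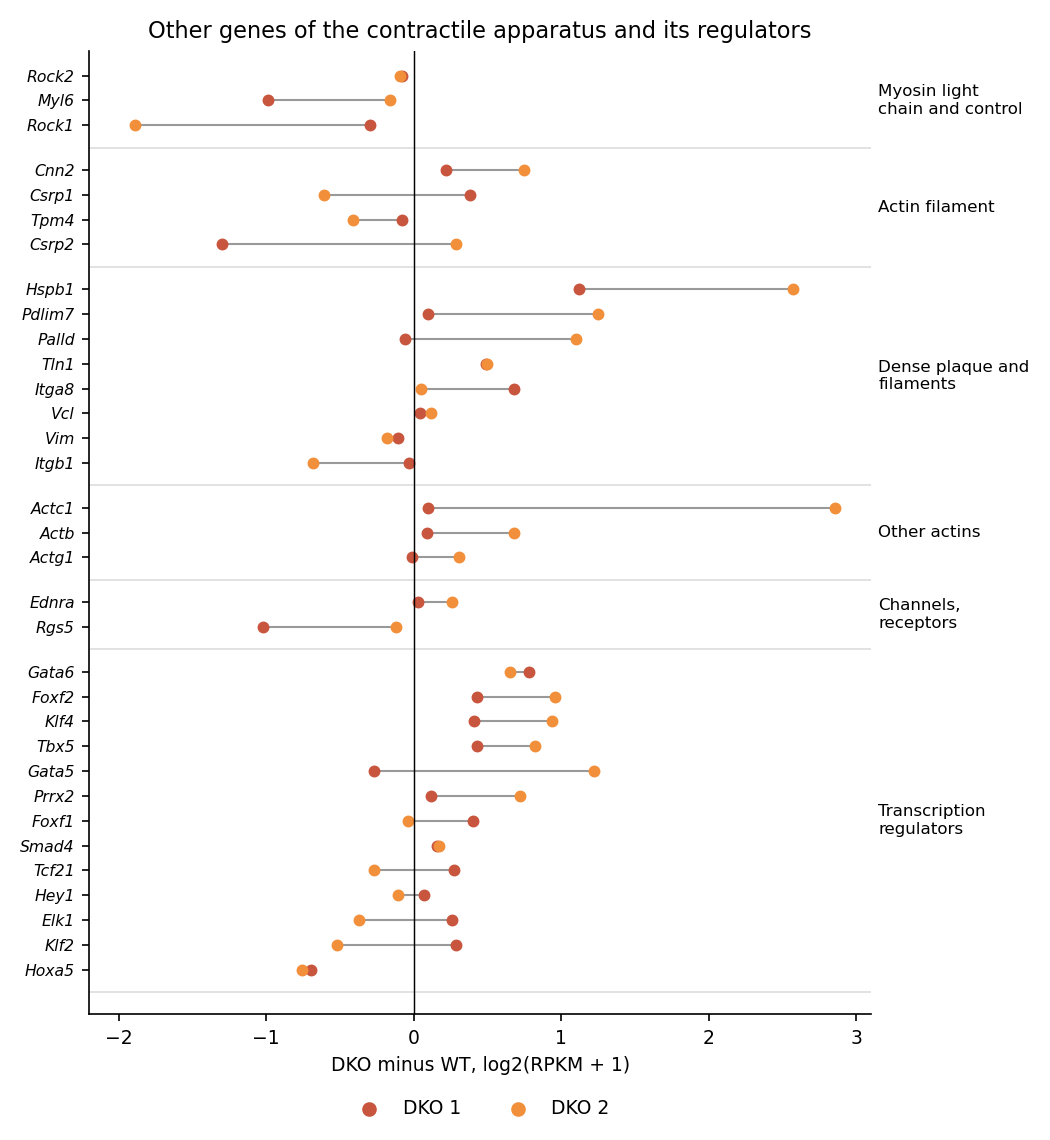
DKO minus WT in log2(RPKM + 1) for 20 of the 23 tested genes of the contractile apparatus (5 lists) and of its transcription regulators (13 genes). Each line joins DKO 1 and DKO 2. The widest gap between them was for Actc1, at 0.10 in DKO 1 and 2.86 in DKO 2, and 6 regulators lie right of 0 with both points.

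Transcription regulators of smooth muscle genes were represented by 36 genes with a row, of which 15 were listed at 0 throughout and 13 were tested. Serum response factor and myocardin were in the list but had no row under their symbols. Both DKO libraries were above WT for 6 of the 13 and below for 1, against 32.1% and 31.0% of all tested transcripts. Limma called 0, with 0 at an unadjusted p under 0.05. The median log2 difference was 0.18, 0.05 without the filter on low values and −0.02 with TPM. Gata6, a factor of lung mesenchyme and epithelium and of vascular smooth muscle, had 7.91 RPKM in DKO 1, 7.16 in DKO 2 and 4.19 in WT. Foxf2, a hedgehog-dependent factor of mesenchyme, had 3.07, 4.88 and 2.02 RPKM, and Tbx5, which acts in lung mesenchyme, 2.51, 3.61 and 1.61, each in the order DKO 1, DKO 2 and WT. Klf4, known to repress smooth muscle genes, had 0.942 RPKM in DKO 1, 1.81 in DKO 2 and 0.466 in WT. Prrx2 and Smad4 were also above WT in both. Hoxa5, a factor of lung mesenchyme, was the 1 below, with 29.5, 28.1 and 48.4 RPKM in DKO 1, DKO 2 and WT.

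Signals that induce or hold back smooth muscle gave 8 tested genes, 4 above and 3 below WT in both DKO libraries (against 32.1% and 31.0% of all tested transcripts), 0 called by limma and 0 at an unadjusted p under 0.05. Tgfb3, a ligand of the TGF-beta family, which promotes contractile gene expression, had 2.33 RPKM in DKO 1, 4.36 in DKO 2 and 0.498 in WT and met the rule of size. Fgf10, a mesenchymal ligand whose expressing cells include precursors of airway smooth muscle, had 5.24 RPKM in DKO 1, 3.57 in DKO 2 and 1.71 in WT. Pdgfa, an epithelial ligand for mesenchymal cells, had 6.88, 6.26 and 13.4 RPKM in that order. Of the matrix genes of smooth muscle and myofibroblasts, 3 of 11 were above WT in both and 0 below, beside the same 32.1% and 31.0%. Among these 3 was Ogn, a small proteoglycan, with 12.6 RPKM in DKO 1, 7.26 in DKO 2 and 2.68 in WT. Eln, elastin, had 2.40, 1.09 and 2.21 RPKM in DKO 1, DKO 2 and WT. Pericyte and mural markers summed to 4.57 RPKM in DKO 1, 6.47 in DKO 2 and 7.99 in WT over 11 genes, of which 5, 7 and 8 were listed at 0. Rgs5 was the largest part of each sum. Rgs5 and Kcnj8, the 2 genes tested, were below WT in both DKO libraries, beside the same 31.0%. Heyl, below the level for testing, went the other way, with 0.273, 0.439 and 0 RPKM in DKO 1, DKO 2 and WT.

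Heart muscle shares several of these genes, since desmin belongs to the heart too and the embryonic heart is known to express Acta2 and Tagln. The 22 heart muscle markers with a row summed to 20.8 RPKM in DKO 1, 152 in DKO 2 and 34.0 in WT. Of the 22, 13 were listed at 0 in DKO 1, 12 in DKO 2 and 12 in WT. Actc1, the heart actin, had 2.23 RPKM in DKO 1, 20.8 in DKO 2 and 2.01 in WT, and Tnnc1, a troponin, 0.742, 39.05 and 4.47 in the same order. Myl2, the ventricular light chain, reached 4.895 RPKM in DKO 2 but 0 in both DKO 1 and WT. Acta2 and Cnn1 were highest in DKO 2 as well, whereas Des was highest in DKO 1 and Tagln was lowest in DKO 2. What part the heart markers had in the smooth muscle values of any of the 3 libraries was not tested.

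**Figure D5:**
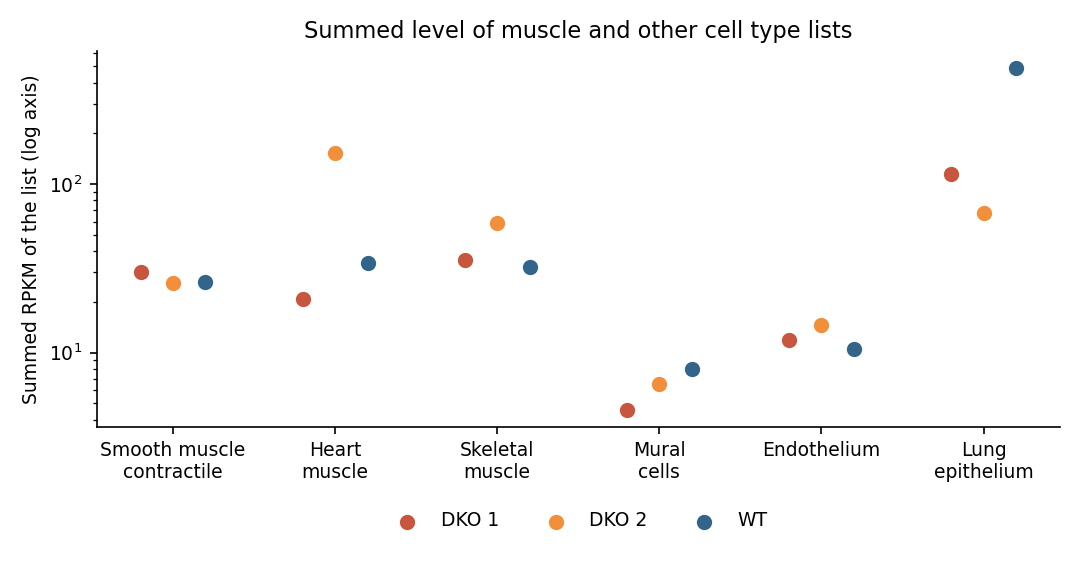
Summed RPKM (log axis) of the smooth muscle contractile genes and of 5 lists of cell type markers in DKO 1, DKO 2 and WT. The smooth muscle sum was 30.1, 26.0 and 26.3 RPKM in that order. Heart muscle markers summed to 152 RPKM in DKO 2 and 34.0 in WT, and lung epithelial markers to 67.6 in DKO 2 and 491 in WT.

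Skeletal muscle markers summed to 35.3 RPKM in DKO 1, 58.5 in DKO 2 and 32.3 in WT over 24 genes, of which 15, 15 and 17 were listed at 0. Lung epithelial markers, in which the deletion was made, summed to 115 RPKM in DKO 1, 67.6 in DKO 2 and 491 in WT, and most of the WT sum was Sftpc (7.55, 0.0364 and 369 RPKM in DKO 1, DKO 2 and WT). Endothelial markers summed to 11.9 RPKM in DKO 1, 14.5 in DKO 2 and 10.6 in WT. What part these cell types had in the smooth muscle values was not tested.

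The genes closest in pattern to the mean of the 6 members (0.24 for DKO 1 minus WT and 0.15 for DKO 2 minus WT on the log2 scale) were Amn1, Timm8b, Marcksl1, Tubb2a, Snrpe, Ppm1g, Smad4 and Elavl1. Likeness was the distance between the pairs of log2 differences over 3 libraries, at most 0.0926 for these 8 of 1033 candidates. The members lay on different sides of WT, and Myh11, which gave no usable level, entered the mean at 0.01 and 0.00. The mean of the members thus lay near 0, and so did these genes.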

How the data were processed

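Libraries were made from Trizol total RNA with the SMARTer Ultra Low Input kit, per the labels' protocols. The submitters' processing notes name cutadapt, TopHat2, HTSeq and edgeR with build mm10, and give no versions. The authors deposited RPKM values for 16383 RefSeq rows, and 68.0% of these held 0 throughout. Rows were named from RefSeq (16150) and GENCODE (78), and 155 stayed unnamed.

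RPKM are not counts. RPKM times GENCODE transcript length gave the worth of 1 read, and 44.1% to 45.9% of low values lay within 0.05 of whole reads (10% by chance), so read numbers are approximate. Tests covered the 2066 transcripts averaging 1 RPKM or more, run on log2(RPKM + 1), a scale that understates changes of low genes, with limma 3.58.1 in R 4.3.3 (trended empirical Bayes, 1 residual degree of freedom, two-sided, adjusted p threshold 0.05). The fit was also run on simulated data, drawn from its own fitted trend with the same spread in all 3 libraries. That run cannot show how the test behaves if the single WT library has another spread. A gene with several transcripts is given by its highest.

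The members, lists and tests were chosen with earlier results of these data known. Named from each list were up to 4 tested genes whose DKO libraries lay both above or both below WT, ranked by the smaller difference (up to 8 for the myosin light chain, actin filament, other actin and regulator lists), and the members. Outside this rule, Actg1, Csrp1, Csrp2, Eln, Tnnc1, Myl2, Gapdh, Pcsk7, Lin28b, Hbb-y, Tyrobp, Afp, Heyl and Krt18 were named after their values were seen. Not every gene that the rule picks is named, and none of its picks from the red cell, white cell and liver list is. Lists of mesothelial genes and of genes that nearly every cell uses were also fixed. The list of such widely used genes had a median log2 difference of −0.17 over 10 tested genes. A result on one listed gene is not reported here, and 3 listed genes are left out of the plot of the contractile apparatus.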

Additional observations from a re-analysis of the deposited data

How the results depend on the processing

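For Acta2, Actg2, Tagln and Des, the direction and the failure to pass held in all 38 fits under the alternatives, with limma adjusted p from 0.922 to 0.999. The alternatives were other pseudocounts, filters, scalings, moderation and removal of haemoglobin genes. Filters and moderation leave the difference itself unchanged, so the direction could not change in those fits. Nor can a pseudocount reverse a gene whose DKO libraries both lie on 1 side of WT, as for Acta2, Tagln and Des. The log2 difference ran from 0.57 to 0.99 for Acta2, from 0.27 to 0.70 for Des, from −0.73 to −0.38 for Tagln and from −0.25 to −0.02 for Actg2. Leaving out DKO 1 or DKO 2 in turn gave 0.60 to 1.14, 0.33 to 0.76, −0.84 to −0.14 and −0.14 to 0.05, with no test. Members above WT numbered 1 with a filter at 5 RPKM, which left Acta2 and Tagln, and those below numbered 2 with TPM (Actg2 joined Tagln) and 1 to 2 with a DKO library left out. By the rule of size there was 1 member (Acta2) at 1.5-fold and 0 to 1 with a DKO library left out.

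The count of transcripts called by limma moved from 2 to 13 and 1 with pseudocounts of 0.1 and 5, 0 without a filter, 10 with a filter at 5 RPKM, 16 with median scaling, 14 without haemoglobin genes, and 0 with quantile normalization or TPM. By size, transcripts higher and lower numbered 118 and 48 with a pseudocount of 0.1, 28 and 6 with 5, 39 and 11 with the filter at 5 RPKM, and 157 and 118 at 1.5-fold, and lower ones 49 without a filter and 67 with TPM (71 higher). With a DKO library left out they numbered 166 to 311 and 114 to 244. The cause was not tested. Of 156 list medians under the alternatives, 126 moved by less than the spread between the DKO libraries. Changes of moderation cannot move a median, and leaving out a DKO library was judged by the gap between those same libraries. The heart muscle median, for instance, was 0.69, and 2.56 or −0.37 with DKO 1 or DKO 2 left out, and counted as unmoved. This count therefore does not show that the medians are stable. No paired analysis was possible because there is 1 WT library, whose label carries no replicate suffix to match those of DKO 1 and DKO 2. Depth limits Cnn1, at 40 to 66 reads, and Myh11, at 0 to 1.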

Other observations

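Of the mesothelial markers, 5 had a row and 3 were tested. Of these 3, 2 were above WT in both DKO libraries, where 32.1% of all tested transcripts were. Aldh1a2, which makes retinoic acid in mesothelium and mesenchyme, had 11.4 RPKM in DKO 1, 13.8 in DKO 2 and 3.75 in WT, and met the rule of size (limma adjusted p = 0.999). Krt19, a keratin of mesothelium and epithelium, had 6.17, 9.11 and 3.08 RPKM in the same order. Krt18, the remaining tested marker, lay on either side of WT, with 4.10 RPKM in DKO 1, 14.7 in DKO 2 and 12.25 in WT. Among skeletal muscle markers, Chrna1, a subunit of the muscle acetylcholine receptor, had 24.7 RPKM in DKO 1, 39.6 in DKO 2 and 13.8 in WT, while Tnni2, a fast troponin, had 9.87, 7.93 and 17.3.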
